A study of Mus musculus with 18 samples.

Results

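The genes described here encode the Timm, Tomm and Chchd proteins, which import nuclear-encoded proteins into mitochondria or are themselves imported with the help of paired cysteines. They were taken from the deposited count matrix as all protein-coding rows whose symbol starts with Timm, Tomm or Chchd followed by a digit. The rule gave 31 of the 25957 genes in the matrix and used no measured value. By role they were 6 small TIM chaperones, 8 subunits of the inner membrane translocases, 9 subunits or relatives of the outer membrane translocase, and 8 CHCHD proteins. Timm8b, the marker of the set, was among them.

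The samples were C2C12 cells, an established line of mouse myoblasts, and RNA was read by BRB-seq, in which samples are barcoded, pooled and sequenced near the poly(A) ends of mRNAs. There were 18 libraries in 6 groups of 3, whose lot numbers 1 to 3 serve as replicate numbers. Nothing says that lots came from separate cultures, and p-values therefore reflect only the spread among these libraries, which may be technical. All groups shared a medium with fetal bovine serum. Control cells were lysed on the plate and scraped without enzyme. The 30 s, 3 min and 30 min groups were washed and kept for those times at 37 °C in 200 µL of 0.25% trypsin, the protease used to lift adherent cells. The low trypsin group received the same trypsin, which was taken away at once, and then stayed at 37 °C for 3 min. The cold-active protease group was shaken with 200 µL of an enzyme that works in the cold for 5 min at 4 °C. The low trypsin and cold groups therefore differed from the 3 min trypsin group in more than the enzyme left on the cells, and the handling of control cells differed from that of every treated group.

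Nearly all mitochondrial proteins are made in the cytosol and enter through the TOM complex of the outer membrane, whose pore is Tomm40 and whose receptors include Tomm20, Tomm22 and Tomm70a. The TIM23 complex (Timm23, Timm17a or Timm17b, Timm50, Timm21 and the motor anchor Timm44) then passes proteins with a presequence into the matrix, and the TIM22 complex (Timm22 with Timm29 and Timm10b) inserts carriers into the inner membrane. Small TIM chaperones ferry hydrophobic proteins across the intermembrane space as hexamers, Timm9 with Timm10 and Timm8 proteins with Timm13. CHCHD proteins are small, fold through disulfides, and many are trapped in the intermembrane space by Chchd4, the oxidising import receptor also called MIA40.

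The cysteine motifs that define the small TIM and CHCHD proteins could be read from the coding sequences, and they are shown because all members that fell after 30 s or 3 min of trypsin carried one. In a twin CX3C motif, cysteines in each pair lie 3 residues apart, and in a twin CX9C motif 9 residues apart. The stretches below run from the first to the last motif cysteine codon, 5′ to 3′ on the coding strand in GENCODE M21 transcripts (GRCm38), with the cysteine codons in capitals. The first 5 lines are the tested small TIM genes and the last line is a CHCHD gene. Timm8b lies at chr9:50604954-50605025 on the plus strand, Timm13 at chr10:80900242-80900535 on the minus strand, Timm10 at chr2:84829803-84829880 on the plus strand, Timm9 at chr12:71123666-71125515 on the minus strand, Timm10b at chr7:105640804-105641048 on the plus strand and Chchd1 at chr14:20703298-20703393 on the plus strand. The stretches of Timm13, Timm9 and Timm10b span 2 exons and are printed without the intron.
Timm8b: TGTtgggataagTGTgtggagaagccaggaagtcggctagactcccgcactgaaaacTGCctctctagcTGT
Timm13: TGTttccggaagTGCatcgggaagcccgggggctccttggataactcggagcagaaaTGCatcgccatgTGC
Timm10: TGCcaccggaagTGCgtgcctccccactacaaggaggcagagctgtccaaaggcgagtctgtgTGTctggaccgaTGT
Timm9: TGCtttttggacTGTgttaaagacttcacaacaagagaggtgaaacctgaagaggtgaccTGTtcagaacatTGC
Timm10b: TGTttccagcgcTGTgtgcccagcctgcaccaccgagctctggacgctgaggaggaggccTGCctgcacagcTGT
Chchd1: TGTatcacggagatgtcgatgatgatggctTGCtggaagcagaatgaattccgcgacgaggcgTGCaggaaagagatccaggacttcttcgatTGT
A twin CX3C motif was found in 6 of 6 small TIM genes and a twin CX9C motif in 8 of 8 CHCHD genes. Neither was found in the other 17 members.

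Library totals lay between 1490869 and 2480690 counts, so that 3 counts corresponded to 1.24 to 2.01 CPM (counts scaled to a common library total), a floor that covers counting error only. The 31 genes together made up 0.301% to 0.338% of each library's counts, and mitochondrially encoded genes 5.39% to 7.09%. All 7 myoblast markers were detected, with Des at 800 to 971 CPM, Myod1 at 45.3 to 67.7 CPM and Myog at 19.6 to 40.9 CPM. Endothelial markers summed to at most 1.54 CPM, epithelial markers to at most 4.33 CPM and blood markers to 1.26 to 7.1 CPM. The adipocyte marker Fabp4 reached at most 1.18 CPM. Fibroblast markers, partly shared with myoblasts, summed to 5.37 to 11.8 CPM, mostly from Dcn. The neural marker Tubb3 stood at 28.3 to 44.2 CPM, while Snap25 reached at most 0.67 CPM. In bulk RNA, fewer cells of a kind and less RNA per cell cannot be told apart. Of the 31 members, 28 passed edgeR's filter on low counts and were tested beside 10075 genes in all. Timm8a1 had 83 counts over 17 libraries, Tomm40l 3 counts and Tomm20l 1 count, and these were not tested. CPM values below are TMM-scaled, differences are log2 fold changes with their standard errors (SE), and a gene was called when the Benjamini-Hochberg adjusted p of edgeR's quasi-likelihood test over all tested genes was under 0.05.

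Across the 6 groups 9 of 28 tested members were called, where 11.5% of all tested genes were. In order of their edgeR adjusted p they were Timm13 (6.39e-11), Chchd1 (3.81e-10), Timm8b (1.24e-08), Timm10 (1.05e-05), Tomm7 (8.61e-05), Timm10b (0.000142), Chchd2 (0.0230), Chchd7 (0.0327) and Timm17a (0.0498). The other 19 members differed from control by between -0.58 (Timm21 in low trypsin) and 0.61 (Chchd10 in the cold group) on the log2 scale. Of these 19, 0 were called against control in any group. They were set apart by a test on the same libraries, so this 0 is not separate support for a lack of change. Timm23, the core of the presequence translocase, is uncertain, since 94.5% of the 45-base words in the last 500 nt of its mRNA also occur in other genes. For Chchd2 this share was 59.0%, and 21 members had no shared word.

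**Figure D1:**
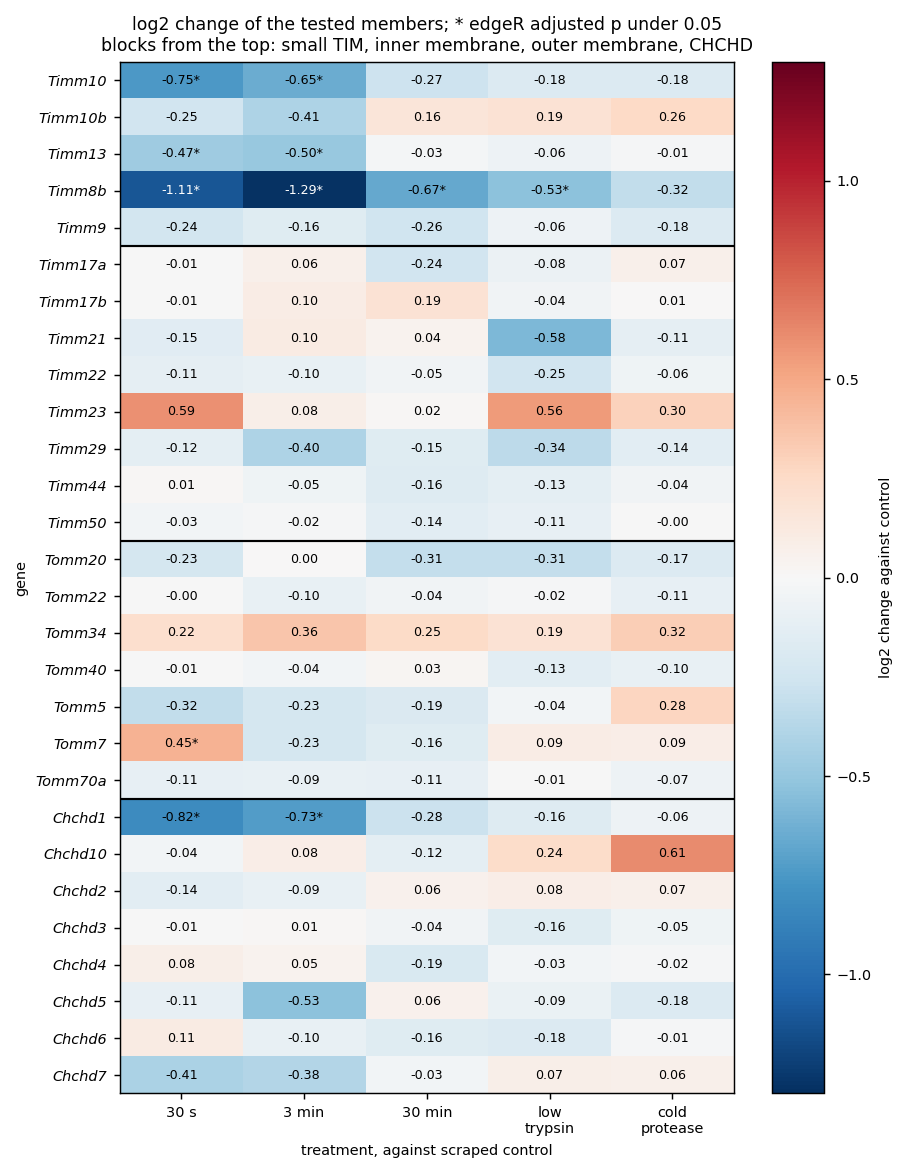
Log2 change against control of the tested members (rows, by role) in each treated group (columns), with called changes marked. The 4 members called lower after both 30 s and 3 min of trypsin are 3 small TIM genes and Chchd1, and the cold-active protease column holds no called change.

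After 30 s of trypsin 4 members fell (Timm8b, Chchd1, Timm10 and Timm13) and Tomm7 rose. That is 14.3% and 3.57% of the 28 members, where 3.7% of all tested genes were called lower and 3.24% higher. The member median was -0.11 on the log2 scale, against 0.00 over all tested genes. After 3 min the same 4 genes were lower, where 2.95% of all tested genes were, and no member was called higher, where 1.01% of all genes were. The member median there was -0.10. Both comparisons share the control libraries.

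Timm8b (ENSMUSG00000039016, chr9:50603910-50605320, plus strand) encodes a small TIM that works with Timm13. Its control libraries stood at 53.3, 52.3 and 57.5 CPM, and the 30 s libraries at 25.2, 25.6 and 24.6 CPM. The 3 min libraries were at 24.7, 24.1 and 17.4 CPM. No library of either trypsin group came near the control libraries. The log2 changes were -1.11 ± 0.15 at 30 s and -1.29 ± 0.16 at 3 min (edgeR adjusted p = 1.83e-07 and 3.38e-08).

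Later and milder treatments left Timm8b nearer to control. The 30 min libraries were at 28.9, 32.5 and 41.6 CPM, the low trypsin libraries at 40.4, 36.8 and 36.0 CPM and the cold libraries at 49.0, 41.2 and 40.2 CPM. All 9 of these lay below all control libraries. The decrease was called after 30 min (log2 -0.67 ± 0.15, edgeR adjusted p = 0.00262) and in low trypsin (-0.53 ± 0.14, edgeR adjusted p = 0.0147), but not with the cold-active protease (-0.32 ± 0.14, edgeR adjusted p = 0.457). The low trypsin call was lost when control replicate 3, low trypsin replicate 2 or low trypsin replicate 3 was left out, with an edgeR adjusted p of up to 0.0986. In order of group mean, Timm8b was highest in control (54.4 ± 2.79 CPM, SD, n = 3), followed by cold (43.5 ± 4.84), low trypsin (37.7 ± 2.32), 30 min (34.3 ± 6.55), 30 s (25.2 ± 0.495) and 3 min (22.1 ± 4.04). The 3 min and 30 s groups did not differ beyond their spread (-0.18 ± 0.19, edgeR adjusted p = 0.866). The ranges of the low trypsin and 30 min libraries overlapped, as did those of the low trypsin and cold libraries.

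Timm13 (ENSMUSG00000020219, chr10:80899450-80900969, minus strand) is the hexamer partner of the Timm8 proteins. Control libraries had 469, 471 and 443 CPM, the 30 s libraries 331, 332 and 340 CPM, and the 3 min libraries 292, 343 and 347 CPM. The ranges did not overlap. The log2 changes were -0.47 ± 0.06 and -0.50 ± 0.07 (edgeR adjusted p = 2.11e-07 and 9.36e-08). With the cold-active protease and in low trypsin the libraries lay between 424 and 469 CPM, and after 30 min at 458, 409 and 489 CPM. These overlapped control, and the log2 differences were -0.01, -0.06 and -0.03, not called.

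Timm10 (ENSMUSG00000027076, chr2:84826997-84830213, plus strand), which forms the main carrier-escorting hexamer with Timm9, stood at 86.0, 68.4 and 73.1 CPM in control. It was at 46.1, 45.6 and 42.3 CPM after 30 s and at 50.1, 44.8 and 49.6 CPM after 3 min, all below the lowest control library. The log2 changes were -0.75 ± 0.12 and -0.65 ± 0.13 (edgeR adjusted p = 9.49e-06 and 0.00029). Its partner Timm9 was not called. Control libraries of Timm9 had 64.8, 63.5 and 54.7 CPM, the 30 s libraries 50.4, 48.2 and 56.2 CPM and the 3 min libraries 50.1, 49.2 and 65.0 CPM, with overlap in both cases (log2 -0.24 and -0.16, edgeR adjusted p = 0.387 and 0.711).

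Timm10b (ENSMUSG00000089847, chr7:105640056-105643637, plus strand), the small TIM bound to the TIM22 complex, was not called against control in any group. Its libraries had 68.0, 74.7 and 81.1 CPM in control, 67.3, 74.8 and 46.1 CPM after 30 s and 50.7, 56.8 and 63.0 CPM after 3 min. The 3 min libraries were below all control libraries (log2 -0.41, edgeR adjusted p = 0.0853), while those of 30 s overlapped control. Libraries had 79.4 to 87.5 CPM after 30 min, 82.7 to 89.9 CPM in low trypsin and 79.1 to 99.3 CPM in the cold group, so that those of 30 min and of the cold group overlapped control. Another gene model, Gm45799, overlaps Timm10b on the same strand and averaged 0.237 CPM.

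Among the CHCHD genes, Chchd1 (ENSMUSG00000063787, chr14:20703006-20704425, plus strand), a protein of the mitochondrial ribosome, was the only member called against control. Its libraries had 157, 167 and 155 CPM in control, 99.5, 89.2 and 81.9 CPM after 30 s and 88.3, 97.8 and 103 CPM after 3 min. Every 30 s and 3 min library was far below every control library (log2 -0.82 ± 0.10 and -0.73 ± 0.10, edgeR adjusted p = 1.04e-08 and 4.42e-07). After 30 min the libraries had 128, 121 and 147 CPM, also below control but not called (log2 -0.28, edgeR adjusted p = 0.0909). Low trypsin (128 to 159 CPM) and the cold-active protease (128 to 166 CPM) overlapped control.

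Chchd2, which shuttles between mitochondria and nucleus, and Chchd7 were called over the 6 groups but in no comparison with control. Chchd2 had 539 to 601 CPM in control, 507 to 544 CPM after 30 s and 542 to 656 CPM in low trypsin, with overlapping ranges. Chchd7 had 38.5, 43.5 and 44.3 CPM in control, 31.3, 28.2 and 36.4 CPM after 30 s and 31.2, 32.2 and 34.2 CPM after 3 min. Its early trypsin libraries lay below control, yet the edgeR adjusted p was 0.109 at 30 s and 0.236 at 3 min. Chchd4, the import receptor itself, had log2 differences of 0.08 at 30 s and 0.05 at 3 min (edgeR adjusted p = 0.839 and 0.937). Chchd3 and Chchd6, which belong to the MICOS complex of the cristae junctions, differed by -0.01 and 0.11 at 30 s and were not called. Chchd10 was scarce, at 2.57 to 9.06 CPM.

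In the outer membrane group, Tomm7 (ENSMUSG00000028998, chr5:23838944-23844161, minus strand), a small subunit that modulates TOM assembly and is needed to stabilise PINK1 there, was the only call. Control libraries had 64.2, 64.5 and 69.3 CPM, the 30 s libraries 90.8, 91.7 and 87.8 CPM and the 3 min libraries 53.0, 51.4 and 65.7 CPM. The 30 s libraries exceeded all other libraries of the study. The rise at 30 s was 0.45 ± 0.11 (edgeR adjusted p = 0.00415), and the level at 3 min was lower than at 30 s (-0.68 ± 0.12, edgeR adjusted p = 8.2e-05). Tomm7 was the only member called between these times, where 1.46% of all tested genes were called lower and 0.476% higher. Low trypsin and cold libraries lay at 67.7 to 73.1 CPM. The pore Tomm40 differed from control by -0.01 at 30 s and -0.04 at 3 min, the receptor Tomm22 by 0.00 and -0.10, Tomm20 by -0.23 and 0.00 and Tomm70a by -0.11 and -0.09, none called.

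None of the 8 inner membrane translocase genes was called against control in any group. That 0 of 8 does not set them apart, since 0.199% to 3.7% of all tested genes were called in each direction. The median log2 difference of the 8 genes was -0.02 at 30 s and 0.02 at 3 min. Timm50 and Timm44 differed by -0.03 and 0.01 at 30 s, and Timm22 by -0.11. The 95% intervals at 30 s were -0.22 to 0.16 for Timm50, -0.21 to 0.23 for Timm44 and -0.30 to 0.08 for Timm22. Timm17a (ENSMUSG00000062580, chr1:135295213-135313778, minus strand), the short-lived variant subunit of TIM23, had 221, 187 and 200 CPM in control, 217, 203 and 211 CPM after 3 min and 153, 166 and 193 CPM after 30 min. Its 30 min libraries were below those of 3 min (-0.31 ± 0.09, edgeR adjusted p = 0.0225), a call lost in 4 of 6 fits that left out a library of either group, with an adjusted p of up to 0.227 without 30 min replicate 1.

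**Figure D2:**
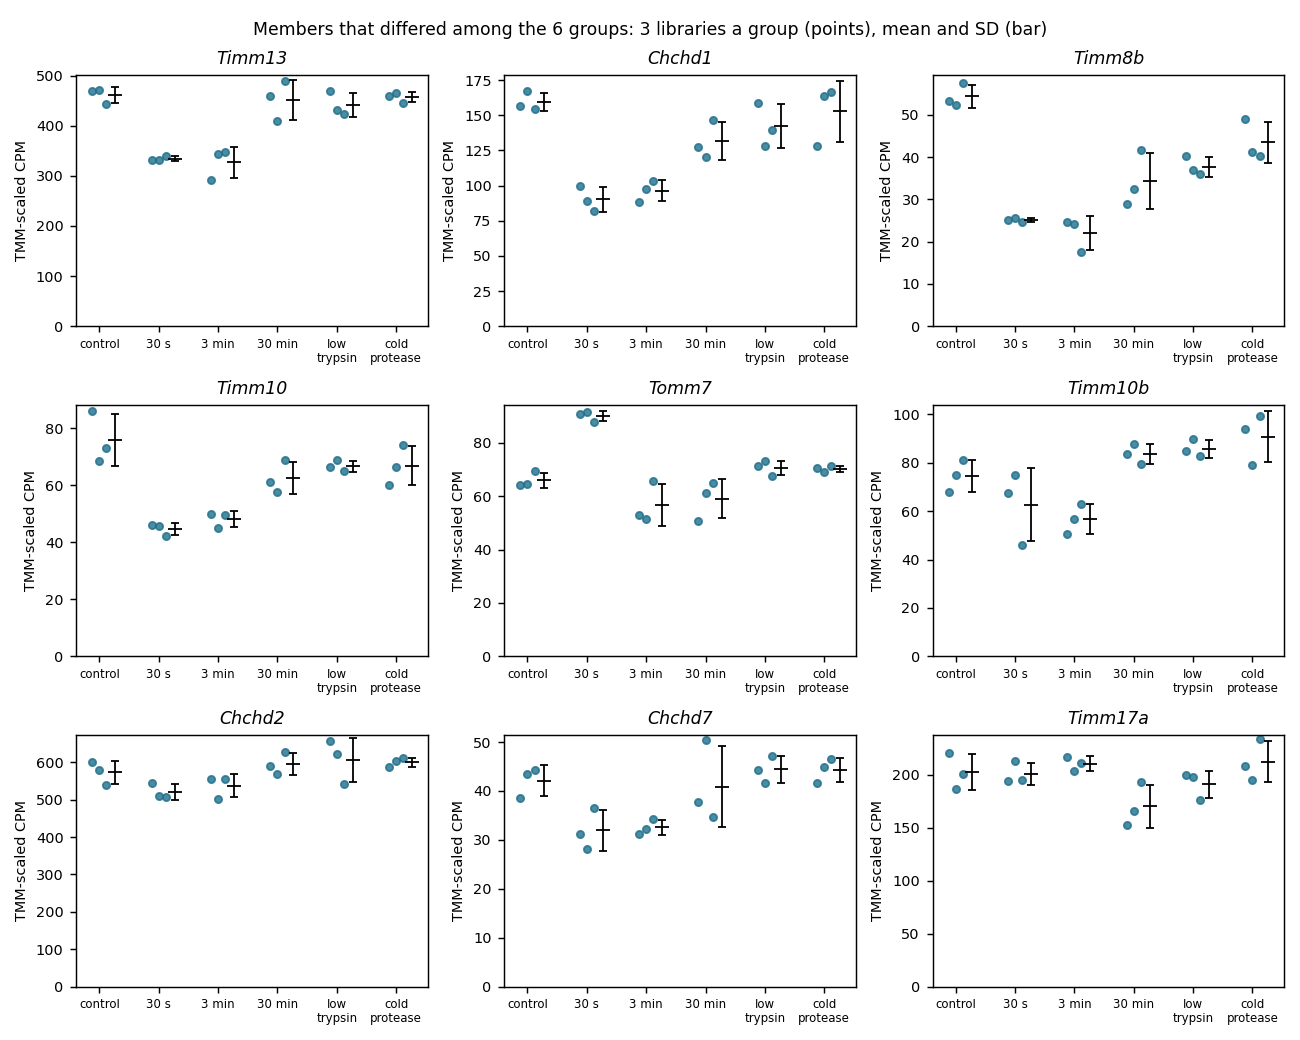
TMM-scaled CPM of the members called over the 6 groups (1 panel each, linear axis), with 3 libraries a group as points and the mean and SD as bars. Timm8b, Timm13, Timm10 and Chchd1 are low in the 30 s and 3 min groups, and Tomm7 is high in the 30 s group only.

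In the remaining comparisons with control, Timm8b was the only member called after 30 min, where 2.61% of all tested genes were called lower and 2.07% higher. It was also the only one in low trypsin, where 1.9% were lower and 3.3% higher. With the cold-active protease 0 of 28 members were called by edgeR and by DESeq2, where edgeR called 0.467% of all genes lower and 0.199% higher. An unadjusted edgeR p under 0.05 was found for 3 of the 28 members and for 885 of all 10075 tested genes. The member medians were -0.12, -0.07 and -0.03 on the log2 scale.

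Set against 3 min of trypsin, 5 of the 28 tested members were called higher in low trypsin and 5 in the cold group. Of the 4 tested members with mRNAs of 800 nt or less, 3 were higher in each. Beside these stand 46.6% and 45.0% of all tested coding genes of that length. In low trypsin, kept for the same time at the same temperature, Timm8b (0.76 ± 0.17), Timm10b (0.60 ± 0.13), Chchd1 (0.56 ± 0.10), Timm10 (0.47 ± 0.13) and Timm13 (0.43 ± 0.07) were higher and no member was lower. The edgeR adjusted p of these 5 lay between 2.02e-06 (Timm13) and 0.0166 (Timm10), and 3.78% of all tested genes were called higher and 0.576% lower. The same 5 genes were higher in the cold group than after 3 min, led by Timm8b at 0.97 ± 0.17 (edgeR adjusted p = 3.59e-05), where 2.84% of all genes were higher and 0.864% lower. Both comparisons share the 3 min libraries. Each Timm10 call was lost in 3 of 6 fits that left out a library, with an edgeR adjusted p of 0.120 and 0.138 without 3 min replicate 2. The calls of Timm8b, Chchd1 and Timm10 in both comparisons were lost once the trend over mRNA length was removed, with values given below.

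After 30 min of trypsin, 5 members were higher than after 3 min, where 2.83% of all tested genes were, and Timm17a was lower, where 1.2% were. They were Timm13 (0.47 ± 0.07, edgeR adjusted p = 6.69e-07), Timm10b (0.56 ± 0.13, 0.0048), Chchd1 (0.45 ± 0.11, 0.00535), Chchd5 (0.59 ± 0.17, 0.0267) and Timm8b (0.62 ± 0.18, 0.0350). Chchd5, a little-studied CX9C protein, had 25.3, 30.6 and 39.5 CPM after 3 min and 47.8, 40.9 and 54.9 CPM after 30 min, with 44.9, 43.0 and 49.0 CPM in control. Its 3 min libraries were the lowest of these. The calls of Chchd5 and Timm8b were each lost in 4 of 6 fits that left out a library, with an adjusted p of up to 0.236 without 3 min replicate 1 for Chchd5 and 0.263 without 30 min replicate 3 for Timm8b. The Timm8b call was also lost with no filter on low counts (adjusted p = 0.0982), with only these groups fitted (0.0822) and with DESeq2 (0.0668). That of Chchd1 was lost in 2 of 6 (up to 0.0800, without 30 min replicate 3) and that of Timm10b in 1 (0.0591, without 3 min replicate 1).

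**Figure D3:**
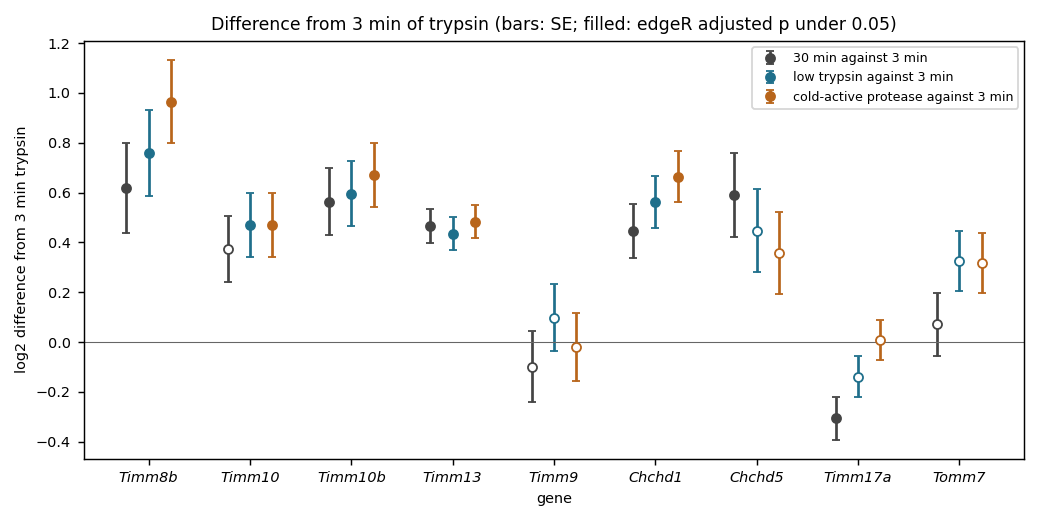
Log2 difference from the 3 min trypsin group after 30 min, in low trypsin and with the cold-active protease (points, with SE bars). Drawn are the members called in any of these comparisons, with Timm9 and Tomm7, which were called in none of them. Timm13, Timm10b, Chchd1 and Timm8b lie above 0 after 30 min, in low trypsin and with the cold-active protease, and Timm17a lies below 0 after 30 min.

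Timm8b, Chchd1 and Timm10, which were lower at 30 s and 3 min, have short mRNAs, and length went with the change at these times. The principal isoform of Timm8b has 518 nt, that of Chchd1 616 nt and that of Timm10 690 nt. Tomm5 (639 nt), a small TOM subunit, is the only other tested member of 800 nt or less, and its log2 difference was -0.32 at 30 s, not called. So 3 of 4 members of this length were lower at 30 s, as were 45.0% of all 298 tested coding genes of that length, and at 3 min the same 3 of 4 beside 46.3%. Of the 24 longer members only Timm13 (1225 nt) was lower at either time, where 2.39% and 1.52% of longer coding genes were. Over the 28 members Spearman's rho between length and log2 change was 0.37 at 30 s, 0.53 at 3 min and 0.215 after 30 min. It was -0.02 in low trypsin and 0.01 in the cold group. These values are a description over genes that share their libraries.

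The trend of each library's counts over mRNA length was then removed. How fully this took the trend out of mRNAs of 800 nt or less was not tested. Before removal, tested coding genes of that length had a median log2 change of -0.36 at 30 s and -0.44 at 3 min. After removal all 4 fallers were still called at 30 s. Timm8b went from -1.11 to -0.85, Chchd1 from -0.82 to -0.59, Timm10 from -0.75 to -0.54 and Timm13 from -0.47 to -0.43. Tomm7 was still called, at 0.51. At 3 min Timm8b (-0.88), Timm13 (-0.44) and Chchd1 (-0.39) were called, and Timm10 was not (-0.35, edgeR adjusted p = 0.148). Against 3 min, Timm10b and Timm13 were the members still called higher in both the low trypsin and the cold group, while Timm8b, Chchd1 and Timm10 lost their calls. In low trypsin Timm8b went from 0.76 to 0.28, Chchd1 from 0.56 to 0.19 and Timm10 from 0.47 to 0.16 (edgeR adjusted p = 0.570, 0.467 and 0.706). In the cold group Timm8b went from 0.97 to 0.55, Chchd1 from 0.66 to 0.32 and Timm10 from 0.47 to 0.18 (edgeR adjusted p = 0.0644, 0.0610 and 0.665). After 30 min Timm8b went from 0.62 to 0.29 and Chchd1 from 0.45 to 0.18, neither called (edgeR adjusted p = 0.516 and 0.447).

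**Figure D4:**
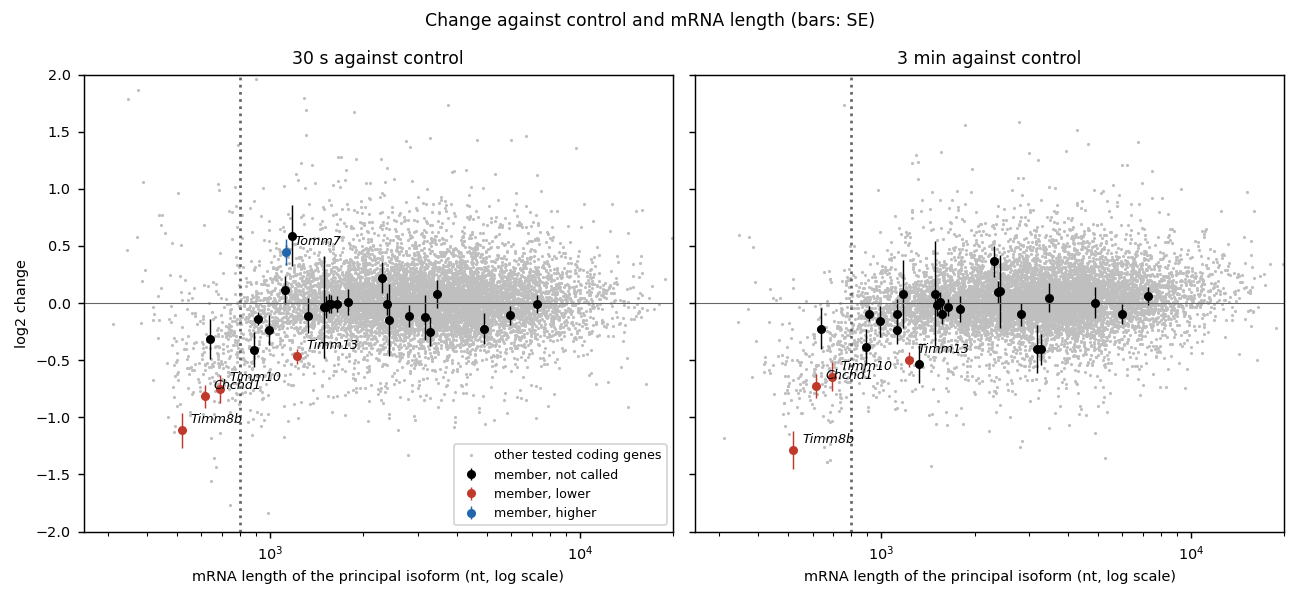
Log2 change against control at 30 s and 3 min by mRNA length in nt on a log axis, for other tested coding genes (grey; those beyond 2 log2 units lie outside the frame) and for tested members with SE bars. The dotted line marks 800 nt; Timm8b, Chchd1 and Timm10 lie to its left, and Timm13 is the only longer member called lower.

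The 14 members with a twin cysteine motif had coding sequences of 249 to 819 nt (median 315), and the 17 members without one 153 to 1833 nt (median 627). The median was thus shorter with a motif, although Tomm5 (153 nt) and Tomm7 (165 nt) lack one. Coding length is not the mRNA length used above. Timm8b, Chchd1 and Timm10 are the only tested motif members with mRNAs of 800 nt or less. All of them were called lower at 30 s and 3 min, so for them motif and short mRNA cannot be told apart. Other tested motif members have longer mRNAs, up to 3472 nt (Chchd4). Of these only Timm13 (1225 nt) was called lower at either time.

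Timm8b has a close neighbour whose mRNA went the opposite way. Sdhd, which encodes a membrane anchor subunit of succinate dehydrogenase and was singled out after its values were seen, lies head to head with Timm8b on chromosome 9, and the annotated starts are 98 nt apart in GENCODE. Sdhd libraries had 98.2, 85.5 and 81.6 CPM in control, 181, 174 and 201 CPM after 30 s, and 213, 191 and 210 CPM in low trypsin. The 30 s and low trypsin libraries were above all control libraries, where those of Timm8b were below. Sdhd changed by 1.07 ± 0.11 at 30 s, 0.52 ± 0.12 at 3 min and 1.22 ± 0.11 in low trypsin (edgeR adjusted p = 2.8e-11, 0.00182 and 1e-12). After 30 min (0.12) and with the cold-active protease (-0.09) it was not called. Of 8 members with a head-to-head neighbour within 1000 nt, 5 had a tested neighbour, and none of the other 4 neighbours (Parg, Pqbp1, 2700049A03Rik and Tmem43) was called against control.

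**Figure D5:**
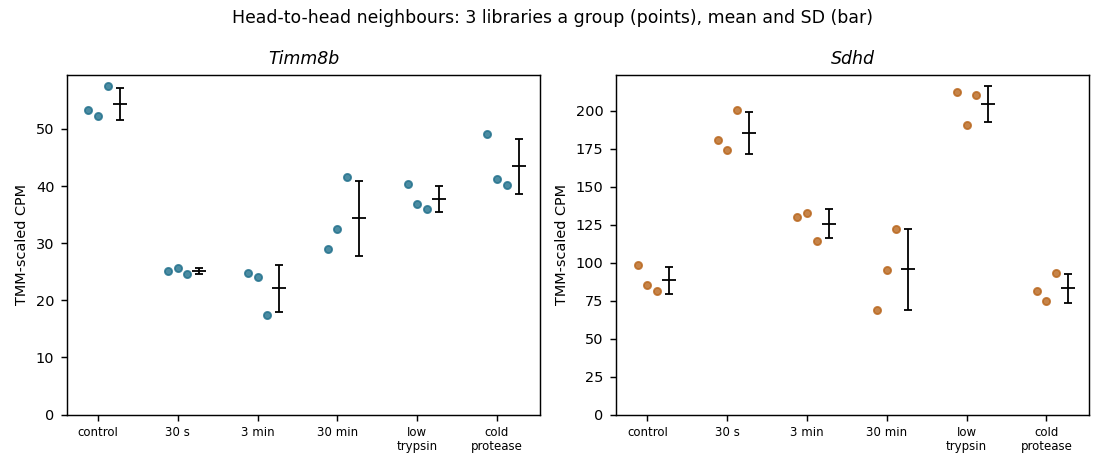
TMM-scaled CPM of Timm8b and its head-to-head neighbour Sdhd in the 6 groups (3 libraries as points, mean and SD as bars, axes from 0). Sdhd is highest in the 30 s and low trypsin groups, where Timm8b is below control.

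The DNA between both start sites is shown because the neighbours share it. RefSeq places the Sdhd start at 50603849 and the Timm8b start at 50603901, and the 51 nt between them (chr9:50603850-50603900, GRCm38.p6, plus strand, reading towards Timm8b) hold 1 copy of CCGGAAG, an ETS-family motif, in capitals.
Timm8b-Sdhd: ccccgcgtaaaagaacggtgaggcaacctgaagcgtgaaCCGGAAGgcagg
On either strand this motif occurred in 8.86% of 32851 RefSeq promoter windows (300 bases around a start) and in those of 10 of the 26 members matched by symbol, namely Chchd3, Chchd5, Timm10, Timm10b, Timm23, Timm29, Timm8b, Tomm22, Tomm34 and Tomm70a. Of these 10, Timm8b and Timm10 were called lower at 30 s, where 4 of the 28 tested members and 3.7% of all tested genes were. Whether the motif went with the calls was not tested. The letters GCGCATG, part of the NRF1 motif, were found on either strand in 3.91% of windows and, among members, in Timm13. AAGATGG, part of the YY1 motif, was found in 6.34% of windows and in Chchd10, Timm17a, Timm50 and Tomm34. A match or its absence is a description of these letters in this window. The percentages count single windows, while the 26 members had 28 windows and were counted as genes with any match, so the units differ. At its other end Timm8b overlaps Nkapd1 on the opposite strand by 81 nt. Nkapd1 averaged 14 CPM and was not called against control, and since no source used here gives the strand used in counting, reads in the overlap could belong to either gene.

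Genes outside the symbol rule that belong to the same pathways were read from 3 lists. Of 23 import partners, 4 fell (17.4%) and 1 rose (4.35%) at 30 s, where 3.7% of all tested genes were lower and 3.24% higher. Of all tested coding genes of 800 nt or less, 45.0% were lower at 30 s and 46.3% at 3 min. Whether mRNA length went with the changes in these lists was not tested. Hspe1, the co-chaperonin of the matrix, changed by -0.79. Pam16, a J-like protein of the import motor, changed by -0.77, and Dnajc19, a J-type protein of that motor, by -0.68. Dnajc15 changed by -0.40, while Mtch1, a carrier homologue of the outer membrane, rose by 0.19. The same 4 were lower at 3 min (Hspe1 -0.66, Pam16 -0.88, Dnajc19 -0.66, Dnajc15 -0.35) where 2.95% of all genes were, and none was higher. Hspe1 alone was lower after 30 min (-0.32), where 2.61% of all genes were, and Samm50, the core of the outer membrane sorting machinery, alone in low trypsin (-0.24), where 1.9% were. In the cold group 0 import partners were called.

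Of 15 other twin CX9C genes, most of which encode respiratory chain subunits or their assembly factors, 6 were lower at 30 s and 6 at 3 min. Beside these stand 3.7% and 2.95% of all tested genes, and 45.0% and 46.3% of the coding genes of 800 nt or less. Ndufs5 changed by -0.71 and -1.37, Uqcrh by -0.62 and -0.76, Cox6b1 by -0.54 and -0.80, Ndufb10 by -0.56 and -0.44, Ndufb7 by -0.39 and -0.54 and Cmc2 by -0.34 and -0.32. After 30 min 2 were lower, Ndufb10 (-0.29) and Uqcrh (-0.27), where 2.61% of all genes were. Cox17, the copper chaperone of cytochrome oxidase, rose at 30 s (0.80 ± 0.15, edgeR adjusted p = 0.000115) and in low trypsin (0.95 ± 0.15, edgeR adjusted p = 8.01e-06). Of 8 tested MICOS and cristae genes, Micos10 and Micos13 were lower at 30 s (-0.67 and -0.57) and 3 min (-0.71 and -0.62), and Apool after 30 min (-0.61). That is 2, 2 and 1 of 8, where 3.7%, 2.95% and 2.61% of all tested genes were lower. Of the coding genes of 800 nt or less, 45.0%, 46.3% and 16.8% were lower at these times. In low trypsin and the cold group 0 MICOS genes were called.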

How the data were processed

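The deposited count table of 18 libraries was used as the authors made it. Per the submitters' processing notes, the build was GRCm38 and the tools included HISAT2 2.1.0, featureCounts 2.0.1, UMI-tools 1.0.1 and Trim Galore 0.6.6; no source used here gives their settings. Counts were tested in edgeR 4.0.16 (R 4.3.3): filterByExpr by group, TMM scaling, 1 quasi-likelihood fit of all 18 libraries with no covariate, and Benjamini-Hochberg adjustment over 10075 genes. CPM were computed from the counts with TMM factors of 0.974 to 1.03. Fits were tested on simulated counts. Gene models came from GENCODE M21, which matched the chromosome of all 31 members, and promoters from RefSeq (GRCm38.p6); protein sequences were not used here. Further deposited tables of normalized values were not used. Alternatives were other scalings, filters, DESeq2 1.42.0, a replicate block, removal of the length trend (lowess span 0.3), fits of only the groups compared, and each library left out. The members and lists were chosen with earlier results of these data known. Library values are given for Timm8b, for members called over the 6 groups and for the largest called changes; Timm9, Chchd5 and Sdhd were added after their values were seen.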

Additional observations from a re-analysis of the deposited data

How the results depend on the processing

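At 30 s, 1 member higher and 4 lower were found under every alternative run. At 3 min the 4 lower members ranged from 4 to 5 with a library left out and were 3 with the length trend removed. After 30 min against control, 1 lower member became 2 with the length trend removed, with or without the replicate block, and 1 to 3 with a library left out (3 without 30 min replicate 3: Chchd1, Timm17a and Timm8b). The low trypsin count of 1 became 0 with DESeq2 (adjusted p of Timm8b 0.0603) and 0 to 1 with a library left out. Against 3 min, the 5 members higher after 30 min became 3 with the length trend removed, with or without the block, and 2 to 4 with a library left out, and the 1 lower became 0 to 1. In low trypsin and in the cold group the 5 higher became 2 with the length trend removed, with or without the block, and 4 to 7 and 4 to 5 with a library left out. Over the 6 groups 9 became 6 to 9. Of 28 called results, 15 kept their call under every alternative, and 0 changed sign under any. The replicate numbers did not pair the libraries: over 45 pairs with the same number the correlation of deviations was -0.06 to 0.07, and 7 of 18 libraries correlated best with their own number. With the replicate block alone, the counts in the 9 comparisons were the same and 8 members, not 9, were called over the 6 groups. Members under about 10 CPM, such as Timm21 and Chchd10, are limited by depth.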
